A study of Mus musculus with 17 samples.

Results

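CC chemokines are small secreted proteins that share a pair of adjacent cysteines, and they guide leukocytes by binding receptors coupled to G proteins. Ccl2 and Ccl7 act through Ccr2, the receptor that brings inflammatory monocytes out of the blood and into injured tissue. Ccl6 and Ccl9 are chemokines of rodents that bind Ccr1, and Ccl11, also called eotaxin, attracts eosinophils through Ccr3. In dystrophic muscle, fibres that break down are cleared by macrophages, many of which arise from recruited monocytes. The genes described here are the 6 ligands Ccl2, Ccl6, Ccl7, Ccl8, Ccl9 and Ccl11 and the 3 receptors Ccr1, Ccr2 and Cx3cr1. Cx3cr1 is not a receptor for CC chemokines, since its ligand is Cx3cl1, but it marks monocytes and tissue macrophages. The 9 genes were chosen with earlier results of these data known. Their probe sets were all those annotated to exactly 1 of the 9 symbols. This gave 15 probe sets for 9 of the 12393 genes on the array.

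The study measured transcripts of the tibialis anterior, a shin muscle rich in fast fibres, on 17 Affymetrix arrays, 1 per sample. There were 6 arrays of normal wild-type mice, 6 of mdx mice, which lack dystrophin through a mutation in Dmd, and 5 of fiona mice, which carry a utrophin transgene on the mdx background. Mice were 56 days old and labelled as males, the muscles of both legs were pooled, and the titles call every sample a biological replicate. The strain and the promoter that drives the transgene are not given in the sources used here. On 1 of 3 Dmd probe sets, normal arrays lay between 6.33 and 6.88, mdx arrays between 3.27 and 3.52 and fiona arrays between 3.23 and 3.53, as log2 values. On 1 of 3 Utrn probe sets, the highest normal array was 2.17, the highest mdx array 2.10 and the lowest fiona array 2.48, with fiona arrays up to 7.28. That lowest fiona value is under the median of 15 unspiked bacterial controls, which lay between 2.75 and 2.99 on fiona arrays. On the other 2 Utrn probe sets the groups overlapped, with a lowest fiona array of 2.68 against a highest normal array of 2.77 on the dimmer of them. Against their labels, 7 arrays had a female pattern of Xist and Eif2s3y, namely 1 normal, 2 mdx and 4 fiona arrays. After the group means were removed, the arrays also fell into 2 sets along the largest remaining component, with 3 normal, 3 mdx and 2 fiona arrays in set 1 and 3 of each group in set 2, and no label gives a batch. All 12 markers of muscle fibres were above the highest unspiked bacterial control probe set in a group.

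Ccl6 and Ccl9 stand next to each other in the mouse RefSeq gene table, with 0 protein-coding genes between them, and Ccl2, Ccl7, Ccl11 and Ccl8 form another run on chromosome 11 that is broken by 1 gene, Ccl12. Ccr1 and Ccr2 lie on chromosome 9 with 2 protein-coding genes between them. A RefSeq table of promoters (GRCm38.p6) held 6 of the 9 members, and the 250 bases before the listed start are shown for the 3 chemokines whose transcripts differed most between the groups. In Ccl8 and Ccl9 the capitals mark matches to the motifs searched on both strands. In Ccl6, which had no match, they mark its longest exact repeat.
Ccl6 promoter: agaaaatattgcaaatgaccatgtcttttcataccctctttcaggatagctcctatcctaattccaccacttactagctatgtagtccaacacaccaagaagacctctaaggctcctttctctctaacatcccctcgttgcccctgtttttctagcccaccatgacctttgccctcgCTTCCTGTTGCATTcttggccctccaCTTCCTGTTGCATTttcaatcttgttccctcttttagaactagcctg
Ccl9 promoter: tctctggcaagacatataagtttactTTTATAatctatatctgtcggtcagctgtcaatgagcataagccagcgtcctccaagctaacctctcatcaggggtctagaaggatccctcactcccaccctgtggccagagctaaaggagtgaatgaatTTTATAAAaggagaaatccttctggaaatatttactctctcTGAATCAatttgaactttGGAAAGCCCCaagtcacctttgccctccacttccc
Ccl8 promoter: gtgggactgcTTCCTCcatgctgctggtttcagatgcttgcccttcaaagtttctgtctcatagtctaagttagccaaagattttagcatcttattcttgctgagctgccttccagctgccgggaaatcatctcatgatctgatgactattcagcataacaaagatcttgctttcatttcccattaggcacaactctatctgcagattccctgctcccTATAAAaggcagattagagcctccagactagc
These are chr11:83593088-83593337 on the minus strand for Ccl6, chr11:83578637-83578886 on the minus strand for Ccl9 and chr11:82114935-82115184 on the plus strand for Ccl8. Ccl9 held 1 match to the NF-kappaB consensus, which begins at base -35 from the start, and 1 to the AP-1 motif TGANTCA, which begins at base -53. Such matches occurred in 3.90% and 6.75% of 32851 promoters in windows of the same length. The TATA motif TATAAA, found in 12.4% of promoters, matched at base -32 of Ccl8 and at 3 places in Ccl9, of which those at bases -94 and -92 overlap. The purine motif GAGGAA of PU.1, a factor of myeloid cells, matched once in Ccl8, at base -240, and occurs in 23.3% of promoters. The interferon-gamma motif TTCNNNGAA, present in 7.02% of promoters, matched in none of these windows. In Ccl6 the stretch CTTCCTGTTGCATT occurs at base -73 and again at base -47. Aligned end to end with gaps, the Ccl6 and Ccl9 windows were identical at 45.7% of positions, within the range of 41.9% to 49.5% over all pairs of the 6 members' windows.

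In mdx muscle 4 of these genes rose. Ccl8 rose 8.63-fold, Ccl6 7.16-fold, Ccl9 6.17-fold and Ccr2 2.23-fold, and 0 of the 9 fell. The 4 members higher compare with 3.22% of all 12393 genes higher and 1.44% lower. The members were chosen with earlier results of these data known. The shares of all genes given here and below therefore describe the members and do not test them. The median log2 difference between mdx and normal muscle was 1.16 over the 9 members and -0.04 over all genes. In fiona muscle, Ccl6, Ccl8, Ccl9, Ccr2 and Ccl2 fell relative to mdx muscle and Ccr1 rose, against 6.79% of all genes lower and 32.1% higher. The median difference was -0.86 over the members and 0.08 over all genes. These comparisons share the mdx arrays. Between fiona and normal muscle 0 of the 9 members passed the test in limma, with 1 at an unadjusted p under 0.05, beside 0% of all genes, of which 2626 had an unadjusted p under 0.05. Over all 15 probe sets, 6 were higher in mdx than in normal muscle (2.73% of all probe sets), 7 were lower (6.08%) and 2 higher (36.0%) in fiona than in mdx muscle, and 0 differed between fiona and normal muscle, where 0.00442% of all probe sets were lower. Because whole muscle was measured, fewer cells of a type and less RNA per cell cannot be told apart.

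**Figure D1:**
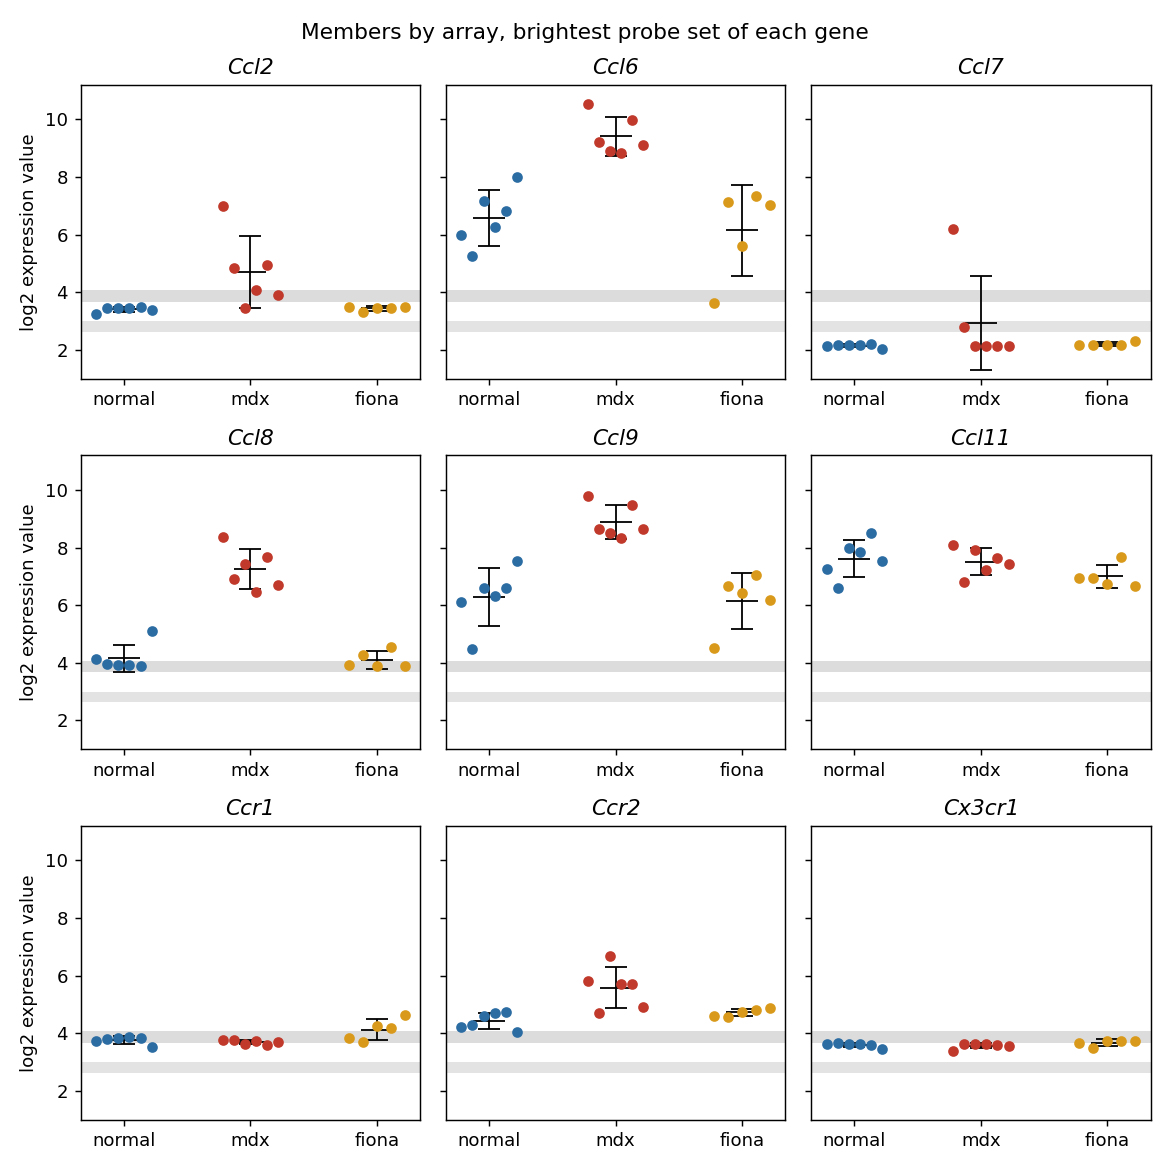
Log2 expression value of each member on its brightest probe set, by array (points), with the group mean and SD (black). The upper grey band is the range of the highest unspiked control and the lower band that of the control median over the 17 arrays; Ccl6, Ccl8 and Ccl9 have all mdx points above all normal and fiona points.

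Among the 9 members Ccl8 had the smallest adjusted p in both of these comparisons. This chemokine, also called MCP-2, attracts monocytes and other leukocytes. Normal arrays ranged from 3.87 through a median of 3.94 to 5.10, and 5 of the 6 lay between 3.87 and 4.13, close to the brightest unspiked bacterial control, which lay between 3.67 and 4.06 over all arrays. The mdx arrays ranged from 6.47 through a median of 7.18 to 8.36. The fiona arrays measured 3.91, 4.28, 3.87, 4.55 and 3.89. Every mdx array was therefore above every normal and fiona array, while normal and fiona arrays overlapped. The log2 difference between mdx and normal muscle was 3.11 ± 0.29 (SE; adjusted p = 1.07e-05 in limma), and fiona arrays fell by 3.16 ± 0.31 from the mdx level (adjusted p = 2.35e-05). With values under the highest control set to it, the differences were 3.10 and -3.12. It held in each array set, at 3.28 in set 1 and 2.94 in set 2 for mdx against normal and -2.96 and -3.32 for fiona against mdx. Ccl8 passed the test in both comparisons in each set alone.

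Ccl6, also known as C10, and Ccl9, also known as MRP-2, are neighbouring genes made by macrophages and other myeloid cells. Unlike Ccl8, both gave signal well above the controls in normal muscle. Ccl6 ranged from 5.26 through a median of 6.54 to 8.00 on normal arrays and from 8.83 through 9.16 to 10.5 on mdx arrays. Its fiona values were 3.62, 7.14, 5.61, 7.36 and 7.03. Fiona array 1 was the lowest of all 17 arrays and lay under its highest control of 3.79. No fiona array reached the lowest mdx array. With the highest control as floor, the fiona and mdx difference was -3.24. The difference between mdx and normal muscle was 2.84 ± 0.61 (SE; adjusted p = 0.0121), and between fiona and mdx muscle -3.27 ± 0.64 (adjusted p = 0.00749).

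A second, dimmer Ccl6 probe set gave much the same picture. On it the median normal array was 4.57, the median mdx array 7.49 and the median fiona array 4.63, with differences of 3.07 (adjusted p = 0.00157 over all probe sets) and -2.75 (adjusted p = 0.00578). All 6 mdx arrays were again above every normal and fiona array.

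Ccl9 ranged from 4.49 through a median of 6.45 to 7.53 on normal arrays and from 8.33 through 8.64 to 9.78 on mdx arrays. Its fiona values were 4.52, 6.66, 6.41, 7.04 and 6.17. The mdx arrays overlapped neither other group, and fiona array 1 was again the lowest of its group. The differences were 2.62 ± 0.48 between mdx and normal muscle (SE; adjusted p = 0.00403) and -2.74 ± 0.51 between fiona and mdx muscle (adjusted p = 0.00492). On the dimmer Ccl9 probe set, 2 of 6 normal and 3 of 5 fiona arrays were at or under the median of 15 unspiked bacterial controls. With that median in place of such values, the differences were 2.96 between mdx and normal muscle and -3.61 between fiona and mdx muscle. With the highest control as floor, which 3 of 6 normal and all 5 fiona arrays did not exceed, they were 2.57 and -2.71. Both comparisons passed the test on the deposited values (adjusted p = 0.000329 and 0.000108 over all probe sets).

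Ccl6, Ccl8 and Ccl9 were thus the 3 of 9 members with every mdx array above every normal array, against 2.54% of all genes, and with every fiona array below every mdx array, against 2.40%. In the opposite directions 0 members separated the groups, against 1.98% and 30.2% of all genes, and none separated fiona from normal muscle, where 0.339% of genes lay wholly above and 0.500% wholly below. Their calls in both comparisons held when any single array was left out. Within array sets 1 and 2, Ccl6 differed by 2.48 and 3.20 between mdx and normal muscle and by -3.75 and -3.02 between fiona and mdx muscle. The same values for Ccl9 were 2.27 and 2.98, and -2.99 and -2.61. With 3 or fewer arrays per group in a set, Ccl6 and Ccl9 passed the test in a single set alone only for fiona against mdx in set 1. Without the 7 arrays of female pattern, the mdx and normal difference was 3.00 for Ccl6 (adjusted p = 0.00654), 3.22 for Ccl8 (0.000160) and 2.80 for Ccl9 (0.0161). That choice leaves fiona array 4 as the only fiona array, assumed to vary like the other groups, and the fiona and mdx difference became -1.94 for Ccl6 (adjusted p = 0.103), -2.64 for Ccl8 (0.00245) and -1.78 for Ccl9 (0.166). With the pattern as a covariate in place of leaving arrays out, all 3 passed in both comparisons.

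Ccl6 and Ccl9 also moved together among arrays of a group. Over the 17 arrays the Pearson correlation of their log2 values was 0.97, and it was 0.91 after the group means were removed. Arrays share labelling and normalization, so this describes the arrays. Mdx array 1 was the highest for both genes and for Ccl8. Ccl8 followed them less closely after the group means were removed, with 0.58 for Ccl6 and 0.62 for Ccl9.

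**Figure D2:**
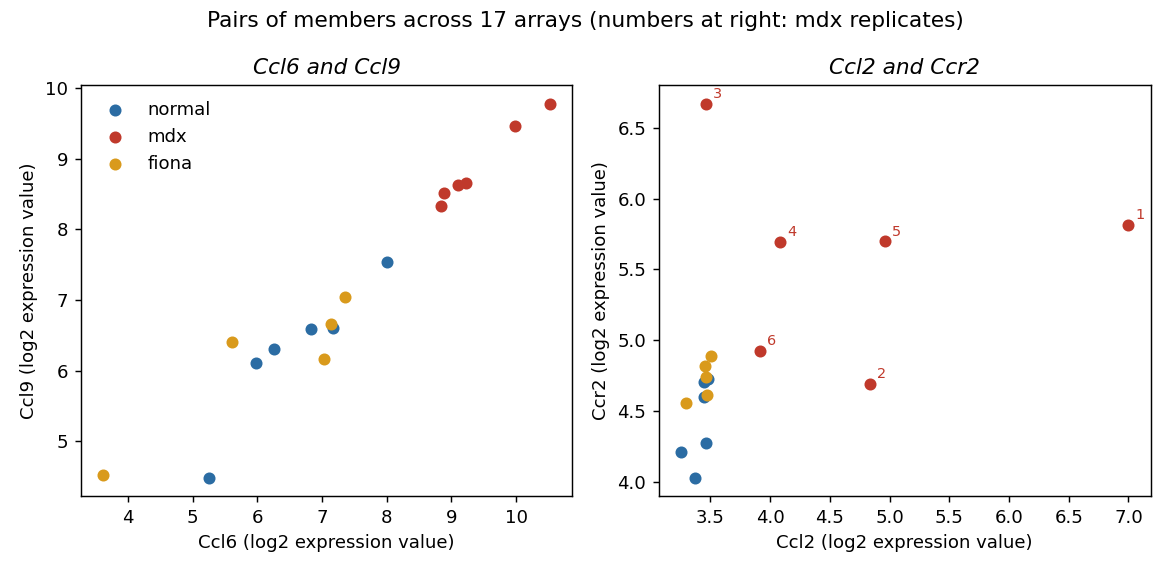
Each point is 1 of 17 arrays, with log2 expression values on both axes; left, Ccl6 against Ccl9 (Pearson 0.97), right, Ccl2 against Ccr2 with mdx replicates numbered. On the left both values rise together, while on the right mdx array 1 is highest for Ccl2 and mdx array 3 is highest for Ccr2 with Ccl2 at the level of the normal arrays.

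Ccl2, or MCP-1, the main ligand of Ccr2, was uneven among mdx mice. Normal arrays lay between 3.25 and 3.48 and fiona arrays between 3.30 and 3.504, all at or under the highest unspiked control. The mdx arrays, from replicate 1 to replicate 6, measured 6.997, 4.83, 3.46, 4.08, 4.96 and 3.92. Array 1 stood well above the rest, array 3 lay within the normal range, and the other 4 lay between. The difference between mdx and normal muscle was 1.30 ± 0.42 (SE), with an adjusted p of 0.102, and was not called. That between fiona and mdx muscle was of like size, -1.27 ± 0.44, and was called (adjusted p = 0.0342), in a comparison where many more genes passed. This call was lost without mdx array 5 or any 1 of the 5 fiona arrays (adjusted p up to 0.0647) and with median-centred arrays (0.0528). The call was also lost with values under the highest control set to it (-0.89, adjusted p = 0.0846) and in a fit of only the 2 groups (0.0957). Without the arrays of female pattern, which leaves 1 fiona array, the difference was -0.84. Within array sets 1 and 2 it was -0.70 and -1.83, and neither was called. The mdx and normal difference was called when mdx array 1 (0.84, adjusted p = 0.0356) or mdx array 3 (1.55, adjusted p = 0.0422) was left out. Without mdx array 1 the difference between fiona and mdx muscle was -0.81.

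Ccl7, or MCP-3, the neighbour of Ccl2 and another Ccr2 ligand, exceeded the highest control on mdx array 1 only. That array measured 6.21, and mdx array 2, at 2.81, was just above its control median of 2.75, while the other 4 mdx, all normal and all fiona arrays were at or under the control median, between 2.04 and 2.30. With that median as floor the difference between mdx and normal muscle was 0.51 (adjusted p = 0.391 for the deposited values), and between fiona and mdx muscle -0.39 (adjusted p = 0.329). With the highest control as floor they were 0.33 and -0.26. Neither was called. Ccl2 and Ccl7 correlated at 0.91 after the group means were removed, and mdx array 1 was the highest for both. Because Ccl7 exceeded the highest control on that array only, the correlation rests largely on it. On mdx array 5 Ccl2 measured 4.96 and Ccl7 2.13.

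Ccl11 was above the highest control on every array and passed the test in no comparison. Its values ranged from 6.61 through a median of 7.69 to 8.51 on normal arrays and from 6.79 through 7.55 to 8.08 on mdx arrays, and fiona arrays measured 6.94, 6.93, 6.75, 7.69 and 6.68. The 3 groups overlapped. The difference between mdx and normal muscle was -0.11, with a 95% interval from -0.73 to 0.52, which leaves out changes of the size seen for Ccl6, Ccl8 and Ccl9. Fiona minus mdx was -0.52 (interval -1.17 to 0.14, adjusted p = 0.196), and fiona minus normal -0.62 (interval -1.28 to 0.03, adjusted p = 0.248).

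Among the receptors, Ccr2 rose in mdx muscle. On its brightest probe set normal arrays ranged from 4.03 through a median of 4.44 to 4.73 and mdx arrays from 4.69 through 5.70 to 6.67. Fiona arrays measured 4.61, 4.55, 4.74, 4.82 and 4.89. Of the mdx arrays, 5 were above every normal array, and array 2 lay within the normal range. The difference between mdx and normal muscle was 1.16 ± 0.26 (SE; adjusted p = 0.0149), and between fiona and mdx muscle -0.86 ± 0.27 (adjusted p = 0.0235). These calls were lost when only the 2 groups compared were fitted (adjusted p = 0.0543 and 0.0576). Without the 7 arrays of female pattern the mdx and normal call was lost (0.99, adjusted p = 0.109). Fiona minus mdx was then -0.68, with 1 fiona array left. The fiona and mdx call was also lost with values under the highest control set to it (adjusted p = 0.0507). That floor changed no value of this Ccr2 probe set, which lay above the highest control on every array. Its difference stayed at -0.86.

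The Ccr2 values differed between the array sets. The difference between fiona and mdx muscle was -1.30 in set 1 and -0.42 in set 2, and that between mdx and normal muscle was 1.35 in set 1 and 0.97 in set 2. A second Ccr2 probe set gave signal on mdx arrays 3, 4 and 5, at 5.25, 3.73 and 4.75, which are the mdx arrays of set 1. The other 3 mdx, all 6 normal and all 5 fiona arrays were at or under the control median on it. With that median as floor, this probe set was higher in mdx than in normal muscle by 0.87 over all arrays (adjusted p = 0.225 for the deposited values), by 1.75 in set 1 and by -0.01 in set 2. With the highest control as floor the difference over all arrays was 0.36. On the third Ccr2 probe set only mdx array 1, at 3.09, was above the control median. The part of the array sets in these values was not tested beyond these differences.

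**Figure D3:**
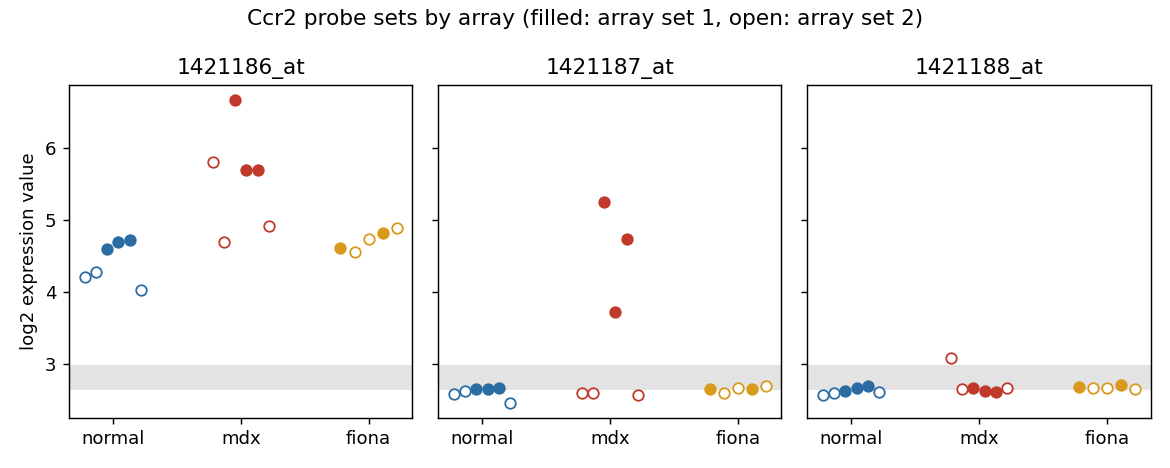
Log2 expression value of the 3 Ccr2 probe sets by array, with filled points for array set 1 and open points for array set 2, and the control median in grey. On the middle probe set the 3 filled mdx points lie between 3.73 and 5.25 and all other points at or near the grey band.

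Ccr1, the receptor of Ccl6, Ccl9 and several other CC chemokines, lay near the highest control on normal and mdx arrays. At or under that control were 3 of 6 normal, 3 of 6 mdx and 1 of 5 fiona arrays. Its brighter probe set measured between 3.51 and 3.87 on normal arrays, between 3.61 and 3.77 on mdx arrays, and 3.84, 3.68, 4.25, 4.19 and 4.62 on fiona arrays. Mdx and normal muscle differed by -0.07 (interval -0.33 to 0.19). Fiona minus mdx was 0.42 ± 0.13 (SE; adjusted p = 0.0214), a call lost without fiona array 3 (adjusted p = 0.0516), with median-centred arrays (0.29, adjusted p = 0.0643), with the mean of its probe sets (0.0667) and in a fit of only the 2 groups (0.0536). The call held with quantile normalization (0.35, adjusted p = 0.0486), with the filter on dim genes (0.0335) and with values under the highest control set to it (0.41, adjusted p = 0.0499). On the dimmer probe set only mdx array 5, at 3.03, was above the control median.

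The fiona and mdx comparison carried a shift among dim genes that touches this call. The control median was 2.70 ± 0.04 (SD, n = 6) on mdx arrays and 2.89 ± 0.09 (SD, n = 5) on fiona arrays. Of the 6100 genes with a mean log2 value under 4, 57.2% were called higher in fiona than in mdx muscle, against 7.79% of the 6293 genes at or above 4. Centring the arrays on their medians moved the difference of all genes by -0.12, and the genes called then split into 654 higher and 784 lower, in place of 3977 and 841. Ccr1 has a mean under 4, and its call was lost with the centring and held with the other settings for dim values named above.

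Cx3cr1, the fractalkine receptor of patrolling monocytes and resident macrophages, gave no signal above the highest control on any array. Its brighter probe set lay between 3.39 and 3.75 on all 17 arrays. The differences were -0.03 between mdx and normal muscle (interval -0.14 to 0.09) and 0.10 between fiona and mdx muscle (adjusted p = 0.165). The second of these turned to -0.02 with median-centred arrays and also with quantile normalization. The dimmer probe set was at or under the control median on all 17 arrays, and its difference of 0.11 between fiona and mdx muscle passed the test (adjusted p = 0.0135 over all probe sets), beside the shift of dim genes given above.

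**Figure D4:**
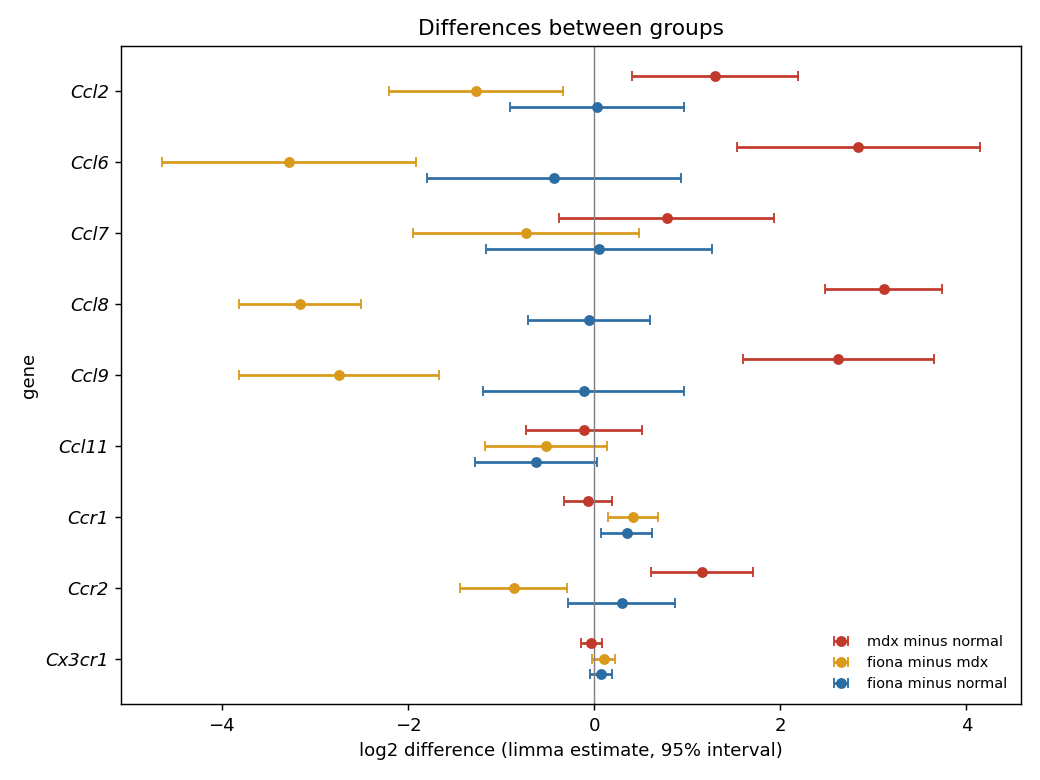
Log2 difference of each member on its brightest probe set (limma estimate and 95% interval) between mdx and normal, fiona and mdx, and fiona and normal muscle. Ccl6, Ccl8, Ccl9 and Ccr2 lie to the right of 0 for mdx minus normal and to the left of 0 for fiona minus mdx, and no member passed the test for fiona minus normal.

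The distance between fiona and normal muscle had a wide interval for most members. Fiona minus normal was -0.05 for Ccl8 (95% interval -0.71 to 0.61) and -0.11 for Ccl9 (-1.19 to 0.96). It was -0.43 for Ccl6 (-1.80 to 0.93), the widest of these intervals. On leaving out 1 array these differences ran from -0.74 to 0.20 for Ccl6, from -0.47 to 0.30 for Ccl9 and from -0.16 to 0.14 for Ccl8, so that their sign turned. For Ccl6 that array was fiona array 1. Ccr2 gave 0.30 (-0.28 to 0.87) and Ccl2 0.03 (-0.91 to 0.97), with Ccl2 at or under the highest control in both groups. Ccr1, a dim gene, gave 0.35 (0.08 to 0.62). It was the 1 member with an unadjusted p under 0.05 in limma (0.0147, adjusted p = 0.210). The intervals of Ccl6, Ccl8, Ccl9, Ccr2 and Ccl2 leave out a rise of the size estimated between mdx and normal muscle. Those estimates have intervals of their own, from 0.61 to 1.71 for Ccr2 and from 0.40 to 2.19 for Ccl2. The upper limits of Ccr2 and Ccl2 for fiona minus normal lie within them. A p over the threshold does not show that fiona and normal muscle were alike.

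Many marker genes of macrophages, and some of those listed for dendritic cells and fibroblasts, moved in the same comparisons. The counts below stand beside 3.22% of all genes called higher and 1.44% lower in mdx than in normal muscle. In fiona against mdx muscle the shares of all genes were 32.1% higher and 6.79% lower. Of 19 measured markers of monocytes and macrophages, 13 were called higher and 0 lower in mdx than in normal muscle, and 15 were called lower and 0 higher in fiona than in mdx muscle. Their summed level, as a log2 value, ran from 9.42 to 10.7 on normal, from 13.0 to 14.3 on mdx and from 9.62 to 10.98 on fiona arrays, so that the mdx arrays stood apart. None of these markers was at or under the control median on all arrays. Each sum adds unlogged levels, so the brightest markers weigh most. In mdx muscle these were Lyz2, Ctss and Lgals3, with mean log2 values of 12.4, 11.6 and 11.5. Fiona array 1, with the lowest Ccl6 of any array, also had the lowest macrophage sum of its group, and mdx array 1, with the highest Ccl6, Ccl8 and Ccl9, had the highest. This was not particular to macrophages. Of all arrays, fiona array 1 also had the lowest fibroblast and dendritic sums and mdx array 1 the highest. The summed level of 10 fibroblast markers ran from 13.2 to 14.1 on normal, from 14.1 to 14.96 on mdx and from 12.2 to 13.8 on fiona arrays, with 3 markers called higher in mdx than in normal muscle and 7 lower in fiona than in mdx muscle. Of 9 measured dendritic cell markers, 4 were called higher and 0 lower in mdx than in normal muscle, and 4 lower and 2 higher in fiona than in mdx muscle. The 4 were Cd74 (2.07), H2-Aa (1.96) and H2-Ab1 (1.91), which serve antigen presentation and are also made by macrophages, and the lectin Clec10a (0.93). The dendritic sum ran from 9.09 to 10.3 on normal, from 10.7 to 12.4 on mdx and from 8.68 to 10.8 on fiona arrays, and Cd209a and Xcr1 were at or under the control median on every array. The part of these cell types in the chemokine values was not tested.

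**Figure D5:**
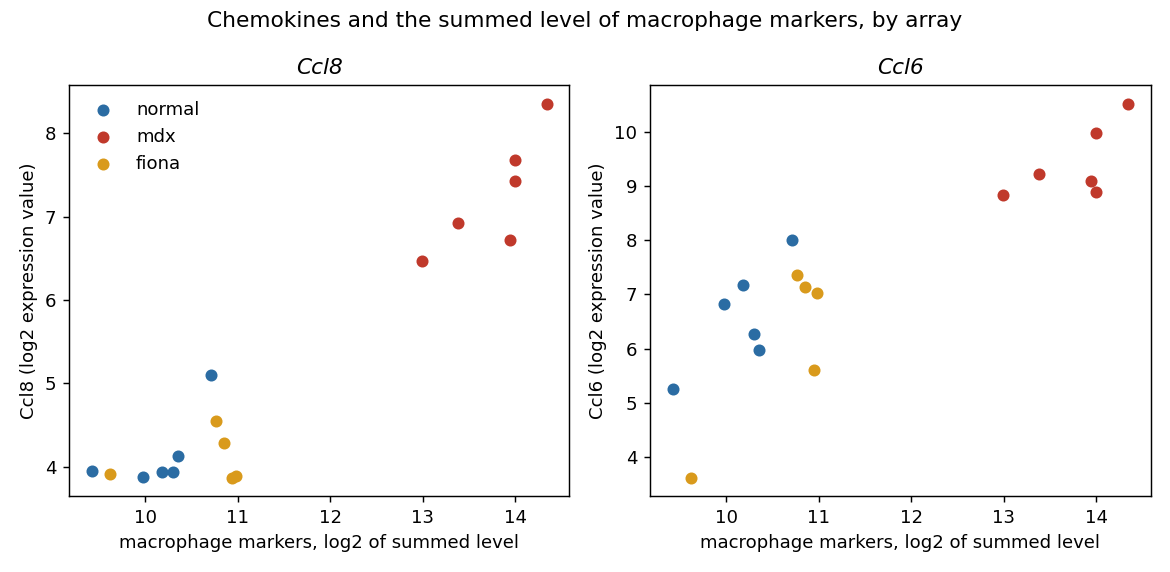
Ccl8 (left) and Ccl6 (right) as log2 expression values against the log2 of the summed level of 19 macrophage markers, 1 point per array. The mdx arrays lie at sums of 13.0 to 14.3, with Ccl8 from 6.47 to 8.36, and the normal and fiona arrays lie at sums under 11.

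Most other genes of the pathway passed no test between mdx and normal muscle. Of 24 measured further CC chemokines, Cx3cl1 and CC receptors, 15 were at or under the control median on every array, among them Ccl3, Ccl4, Ccl5 and Ccr3, and only Ccl27a had a group mean above the highest control. In mdx against normal muscle 0 were called higher and 1 lower, beside 3.22% and 1.44% of all genes. The 1 lower was the atypical receptor Ccrl2, with a mean of 2.82 in normal and 2.28 in mdx muscle (adjusted p = 0.0231). These means lie near and under the control medians of 2.77 and 2.70, so the size of that difference is not a measured level. The list median was -0.03. In fiona against mdx muscle 8 of 24 were called higher and 0 lower, beside 32.1% and 6.79% of all genes, with a median of 0.06, the largest being Ccr9 (0.36) and Ccl25 (0.36), both with group means under 4.

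Of 23 measured genes of signalling below chemokine receptors, 3 rose and 0 fell in mdx muscle, beside 3.22% and 1.44% of all genes. The list median was 0.05, and 3 genes were called. They were Fermt3, which activates leukocyte integrins (log2 difference 3.42, adjusted p = 1.73e-05), Coro1a, an actin regulator of leukocytes (2.70, adjusted p = 3.02e-05), and Dock2, which switches on Rac in migrating leukocytes (1.24, adjusted p = 0.00944). In fiona against mdx muscle 5 of 23 were called lower and 3 higher, beside 6.79% and 32.1% of all genes, with Fermt3 at -3.11, Coro1a at -2.39 and Dock2 at -1.19. Of 21 genes of monocyte supply and adhesion, 4 rose and 0 fell in mdx muscle, with a median of 0.04, and 4 were called lower and 7 higher in fiona against mdx muscle, with a median of -0.11 and beside the same shares of all genes. The 4 genes that rose in mdx muscle were Csf1r, the receptor for the growth factor of macrophages (2.68), Itgb2, the beta chain of leukocyte integrins (2.04), Sirpa, an inhibitory receptor of myeloid cells (1.53), and its ligand Cd47 (0.60). Their values in fiona against mdx muscle were -2.38, -1.97, -1.57 and -0.74, and all 4 were called.

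The genes whose levels over the 17 arrays were most like those of a member were found by Pearson correlation of log2 values. Ccl8 was most like Cd53, a leukocyte tetraspanin (0.98), Ccl6 most like Pdpn, podoplanin (0.94), and Ccl9 most like Anxa2, a membrane-binding annexin (0.96). Ccr2 was most like Npnt, a matrix protein (0.96). Ccl11 had Efemp1, another matrix protein, as its nearest gene, at 0.85. For Ccl2 the nearest was Selplg (0.93), a selectin ligand of leukocytes, and without the group means this was 0.91. Ccr1 was most like Mucl1 (0.99), which had a mean of 3.87. The arrays share groups and normalization, and the correlations describe likeness only.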

How the data were processed

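Values were taken from the deposited table of 22690 probe sets on 17 one-colour Affymetrix arrays, which holds log2 expression values made by the authors. Per the submitters' processing notes, RMA and GCRMA were used, and the sources used here do not say which of these made the table. Control probe sets (64) and probe sets with several symbols (691) or none (1555) in the platform table were set aside, and each of 12393 genes was represented by its brightest probe set, with no filter on level. Groups came from the sample titles. limma 3.58.1 in R 4.3.3 fitted the 3 group means (lmFit, eBayes), with Benjamini-Hochberg adjustment over all genes and a call at an adjusted p under 0.05. Further probe sets were tested in a fit over 22626 probe sets. Each difference subtracts the second-named group's log2 mean. Where arrays lay at or under the median of 15 unspiked bacterial controls, that median, or the highest of those controls, replaced them where a floor is named. An array was given a female pattern where Eif2s3y was under 6. Mdx array 6 had Xist signal (5.40) with Eif2s3y at 8.11 and was not counted among them. The fit was tested on simulated data. The members and gene lists were chosen with earlier results of these data known. Named genes were the members, called members of the lists by size of change (up to 4 per list and comparison) and the genes most correlated with a member; fewer are named here. Samples that share a number were not treated as pairs: of 16 same-numbered pairs, 7 had residuals correlated above 0.1. Between normal and mdx arrays these correlations ran from 0.09 to 0.61, and in pairs with a fiona array from -0.49 to 0.48. In both the normal and the mdx group, replicates 3, 4 and 5 made up array set 1. Motif searches covered the 250 bases before each listed RefSeq start. Plots came from matplotlib 3.10.9 under Python 3.11.15.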

Additional observations from a re-analysis of the deposited data

Results flagged for a closer look

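Among 45 groups of a probe set examined with Dixon's criterion, 10 had an array far from the others of its group, where chance gives about 1 in 20. In mdx muscle, Ccl7 measured 6.21 on array 1 beside 2.81 on the next array. The third Ccr2 probe set measured 3.09 on mdx array 1 beside 2.67, and the dimmer Ccr1 probe set 3.03 on mdx array 5 beside 2.53. In normal muscle, Ccl8 measured 5.10 on array 6 beside 4.13. In fiona muscle, Ccl11 measured 7.69 on array 4 beside 6.94. The other arrays set apart lay at or near the control level. They were Ccl2 on fiona array 2 (3.30), Ccl7 on normal array 6 (2.04) and on fiona array 5 (2.30), and Cx3cr1 on normal array 6 (3.46) and on mdx array 1 (3.39).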

How the results depend on the processing

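Of the 9 members, 4 were called between mdx and normal, 6 between fiona and mdx and 0 between fiona and normal muscle. Leaving out 1 array at a time gave 4 to 5, 4 to 6 and 0 to 1 members. The calls for mdx against normal numbered 2 in array set 1 alone and 1 in array set 2 alone. Those for fiona against mdx numbered 3 in a fit of only those groups and 1 in array set 2 alone. Without the arrays of female pattern, fiona array 4 was the only fiona array left. Calls with fiona muscle are therefore not counted for that choice. With the replicate number as a block, 4, 4 and 0 members were called, and Ccl2 and Ccr1 were lost for fiona against mdx (adjusted p = 0.0603 and 0.0622). Over all genes that fit called 509 between fiona and mdx muscle, 185 higher and 324 lower, and 2 of 16 pairs had their own number as the best partner. Over all genes, 4818 calls between fiona and mdx muscle became 1438 with median-centred arrays, 1887 with quantile normalization (1317 higher, 570 lower), 2133 with the filter on dim genes and 749 with values floored at the highest control, an alternative chosen after seeing the data. Between mdx and normal muscle 578 became 1238 with array set as a block and 382 without the arrays of female pattern. In the array sets alone the counts were 2565 and 272 there and 4295 and 110 between fiona and mdx muscle. Between fiona and normal muscle 0 genes became 974 without fiona array 2. No called member reversed its sign in any alternative run. The causes of these changes were not tested. Signal over background limits Ccl7 and Cx3cr1, which lay at or under the highest control on all arrays but mdx array 1 for Ccl7. It also limits Ccl2, which did so on all 6 normal, 1 mdx and all 5 fiona arrays. Ccr1 did so on 3 normal, 3 mdx and 1 fiona arrays, Ccl8 on 1 normal and 2 fiona arrays and Ccl6 on 1 fiona array.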

Other observations

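Of 22 measured CXC and XC chemokines and their receptors, 1 rose and 0 fell in mdx muscle, with a list median of -0.04. Of all genes 3.22% rose and 1.44% fell. The 1 gene of the list that rose was Pf4, the platelet factor also made by macrophages. Its level was 5.51 ± 0.54 in normal (SD, n = 6), 8.45 ± 0.66 in mdx (n = 6) and 5.38 ± 0.91 in fiona muscle (n = 5). The log2 difference was 2.94 between mdx and normal muscle (adjusted p = 0.000262 in limma) and -3.07 between fiona and mdx muscle (adjusted p = 0.000363). Cxcl14 was lower in fiona than in mdx muscle by 1.37 (adjusted p = 0.0258) and differed by 0.99 between mdx and normal muscle (adjusted p = 0.235). In fiona against mdx muscle 9 genes of the list were called higher and 2 lower, beside 32.1% and 6.79% of all genes. Cxcl12, the ligand of Cxcr4, was bright in all groups, with differences of 0.09 and -0.36 that were not called.

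Marker genes of eosinophils, the cells that Ccl11 attracts, and of mast cells gave little signal. Of 10 measured markers of eosinophils and mast cells, 2 had a group mean above the highest control, Epx was at or under the control median on every array, and 0 rose or fell between mdx and normal muscle. In fiona against mdx muscle 5 were called higher, with Il5ra at 0.45 and Siglecf at 0.34, and 0 lower, beside the same shares of all genes. Their group means lay near 4 or under it, among the dim genes that shifted together. Csf1, the growth factor of macrophages, differed by 0.82 between mdx and normal muscle (adjusted p = 0.305) and was not called.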
